A study of Homo sapiens with 60 samples.

Results

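Transfer RNA synthetases attach each amino acid to its matching transfer RNA. The 35 synthetase genes described here were taken by name from the family, in a choice made with earlier results of these data known: 17 whose enzymes work in the cytosol (AARS1, CARS1, EPRS1, FARSA, FARSB, HARS1, IARS1, LARS1, MARS1, NARS1, QARS1, RARS1, SARS1, TARS1, VARS1, WARS1 and YARS1), 16 whose enzymes work in mitochondria and whose symbols end in 2 (AARS2, CARS2, EARS2, FARS2, HARS2, IARS2, LARS2, MARS2, NARS2, PARS2, RARS2, SARS2, TARS2, VARS2, WARS2 and YARS2), and 2 that serve both compartments (GARS1 and KARS1). All 35 were found among the 60675 gene identifiers of the deposited table, and all 35 were among the 16445 genes with enough counts to be tested.

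RNA was sequenced from HT29, a human colorectal adenocarcinoma cell line, after 24 h with herbal extracts, in 60 libraries of 22 groups. The treated groups had Palmul-tang or Sibjeondaebo-tang, multi-herb formulas prepared as water extracts, or ethanol extracts of Poria Cocos (Poria), Atractylodis Rhizoma (Atractylodes), Glycyrrhizae Radix (Glycyrrhiza, licorice root), Panax Ginseng (Ginseng) or Angelicae Gigantis Radix (Angelica). Most extracts were given at 20, 100 and 500 µg/mL. Glycyrrhiza was given at 14, 70 and 350 µg/mL and Angelica at 12.8, 64 and 320 µg/mL. By the study's dose rule those high doses of Glycyrrhiza and Angelica were the extracts' IC20, an inhibitory concentration, and the other high doses were not chosen in this way. The reference was vehicle, DMSO, given as 0.1% in the sample labels and as 2% in the series text. Each group had 3 libraries except Angelica, with 1 library per dose. The extracts carry set numbers in their sample names: 8 on both formulas, 9 on Poria and on Atractylodes, 10 on Glycyrrhiza and on Ginseng, and 11 on Angelica. Vehicle has no such number, so in a comparison with vehicle the set and the extract cannot be told apart. Within an extract, high against low dose uses no vehicle library and stays inside a set.

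Total counts ran from 19.31 M to 29.62 M per library with a median of 25.06 M. Levels are given as CPM, counts per M of library size after TMM scaling, except that CPM of marker genes use the unscaled library total. Epithelial markers were read in every library, and 9 of 9 were tested. EPCAM stood at 486 to 637 CPM and KRT8 at 6070 to 7690 CPM, while CDX1 (0.359 to 1.44 CPM) and CDX2 (3.53 to 6.27 CPM) were low. Of the immune markers, PTPRC reached at most 0.0769 CPM, and CD68 stood at 4.03 to 10.1 CPM. The low dose Poria replicate 1 and the Ginseng replicates 3 at low and high dose lay apart from the other libraries on the third principal component. Mitochondrially encoded RNA took 6.83% to 8.83% of counts in the means of the replicated treated groups, against 10.2 ± 1.4% in vehicle (SD, n = 3). The single Angelica libraries had 6.54% to 8.12%. The labels do not say that replicates were separate cultures, so p-values measure only how far these libraries scatter, which may be technical.

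Cytosolic synthetases serve the cytosolic ribosomes, and several of them (EPRS1, IARS1, LARS1, MARS1, QARS1, RARS1 and KARS1 here) sit together in the multisynthetase complex. Mitochondrial synthetases are encoded in the nucleus, imported, and charge the transfer RNAs that read the mitochondrial genome. When amino acids run short or proteins misfold, kinases that phosphorylate the translation factor eIF2 raise output of the transcription factor ATF4, and many cytosolic synthetase genes are known ATF4 targets together with genes of amino acid synthesis and uptake. ATF4 binds DNA with C/EBP partners at sites whose core is close to TGATGCAA.

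Promoter stretches of the family are shown because they carry this core in some members and not in others. RefSeq promoter windows on GRCh38.p14, from 250 bases before to 50 bases after each start, were at hand for 30 of the 35 genes (39 windows), and not for AARS2, LARS1, VARS1, VARS2 and YARS1. The letters TGATGCAA, searched on both strands (TTGCATCA on the other), were in the windows of 295 of 27305 genes in all, which is 1.08%. They were in 6 of 14 cytosolic members, 0 of 2 serving both compartments and 0 of 14 mitochondrial members. With any base at the sixth position (TGATGNAA, which includes the exact core), 1217 of 27305 genes held a match, or 4.46%, and GARS1 and YARS2 joined the 6. The stretches below run 5′ to 3′ on the strand of the gene, with the matched core in capitals, and lie at chr16:70289674-70289743 (minus strand) for AARS1, chr11:3057406-3057475 (minus) for CARS1, chr9:92293691-92293760 (minus) for IARS1, chr12:57488014-57488083 (plus) for MARS1, chr18:57621807-57621872 (minus) for NARS1, chr5:33440917-33440986 (plus) for TARS1 and chr7:30594795-30594864 (plus) for GARS1.
AARS1: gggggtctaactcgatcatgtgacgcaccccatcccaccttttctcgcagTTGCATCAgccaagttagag
CARS1: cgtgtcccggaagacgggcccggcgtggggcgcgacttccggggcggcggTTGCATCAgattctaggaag
IARS1: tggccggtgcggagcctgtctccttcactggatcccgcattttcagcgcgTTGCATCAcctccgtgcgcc
MARS1: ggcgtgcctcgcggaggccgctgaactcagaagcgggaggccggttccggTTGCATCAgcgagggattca
NARS1: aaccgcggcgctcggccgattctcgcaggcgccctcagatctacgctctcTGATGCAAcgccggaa
TARS1: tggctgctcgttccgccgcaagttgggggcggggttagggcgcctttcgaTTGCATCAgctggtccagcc
GARS1: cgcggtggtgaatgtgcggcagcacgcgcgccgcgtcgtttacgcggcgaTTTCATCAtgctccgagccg

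In 5 of these 7 stretches the core lay within 20 bases of the RefSeq start. Its first base was at -13 in IARS1, -4 in MARS1, -2 in CARS1, +3 in TARS1 and +15 in NARS1, against -33 in GARS1 and -187 in AARS1. The 7 shown are the genes with a match that rose with Glycyrrhiza, as given below. The match of YARS2, at -197, is not shown. EPRS1, SARS1 and WARS1 had windows without either form of the core. A match describes letters and is not a binding site.

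Per kilobase of exon, the genes for both compartments and most cytosolic genes stood above the mitochondrial genes in vehicle. KARS1 had 56.8 and GARS1 51.6 CPM per kb. The cytosolic members ran from 6.51 (CARS1) to 55.0 CPM per kb (TARS1), with a median of 30.1. The mitochondrial members ran from 2.16 (FARS2) to 26.1 CPM per kb (IARS2), with a median of 6.475. The ranges overlap, since IARS2 stood above 7 cytosolic genes.

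With the high dose of Glycyrrhiza, RNA of most cytosolic synthetases was more abundant than with the low dose, and RNA of most mitochondrial ones was not called. In all, 12 of 35 genes rose, 11 of them cytosolic and the other GARS1, and 2 fell, VARS1 and CARS2 (edgeR quasi-likelihood F test with Benjamini-Hochberg adjustment, called at an adjusted p below 0.05). Of all 16445 tested genes, 14% were higher and 10.9% lower in this comparison. The median log2 fold change was 0.29 over the cytosolic genes and -0.05 over the mitochondrial genes, against -0.01 over all tested genes. As in any bulk sample, a change in RNA per cell and a change in the share of cells carrying it cannot be told apart.

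WARS1, the tryptophan enzyme, had the highest fold change. Its level was 188.5, 201.8 and 198.2 CPM at high dose and 106.8, 101.5 and 99.81 CPM at low dose, a log2 fold change of 0.93 ± 0.05 (SE, n = 3 each, adjusted p = 3.4e-21). High dose libraries stood well clear of low dose libraries. WARS1 lies at chr14:100333788-100376805 on GRCh38 (minus strand).

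SARS1, which charges serine, had 202.7, 188.0 and 190.2 CPM at high dose and 119.8, 111.1 and 113.1 CPM at low dose, a log2 fold change of 0.75 ± 0.04 (adjusted p = 2.4e-19). The libraries of the doses did not overlap. The glycine gene GARS1, whose product is used in cytosol and mitochondria alike, had 354.1, 323.7 and 333.0 CPM at high dose and 213.8, 198.9 and 197.0 CPM at low dose (log2 fold change 0.73 ± 0.04, adjusted p = 6.9e-22). Its high dose libraries were likewise all above the low dose ones. SARS1 lies at chr1:109213918-109238169 (plus strand) and GARS1 at chr7:30594681-30634033 (plus strand).

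AARS1, the alanine gene with the core far from its start, had 230.1, 232.9 and 246.1 CPM at high dose and 152.4, 150.1 and 150.5 CPM at low dose (log2 fold change 0.64 ± 0.04, adjusted p = 2.2e-19). Every high dose library was above every low dose library. CARS1, the cysteine gene with the core at its start, had 108.7, 106.9 and 111.3 CPM at high dose and 71.89, 70.1 and 71.48 CPM at low dose (log2 fold change 0.61 ± 0.04, adjusted p = 4.4e-17). These libraries did not overlap either. AARS1 lies at chr16:70252295-70289543 (minus strand) and CARS1 at chr11:3000922-3057613 (minus strand).

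**Figure D1:**
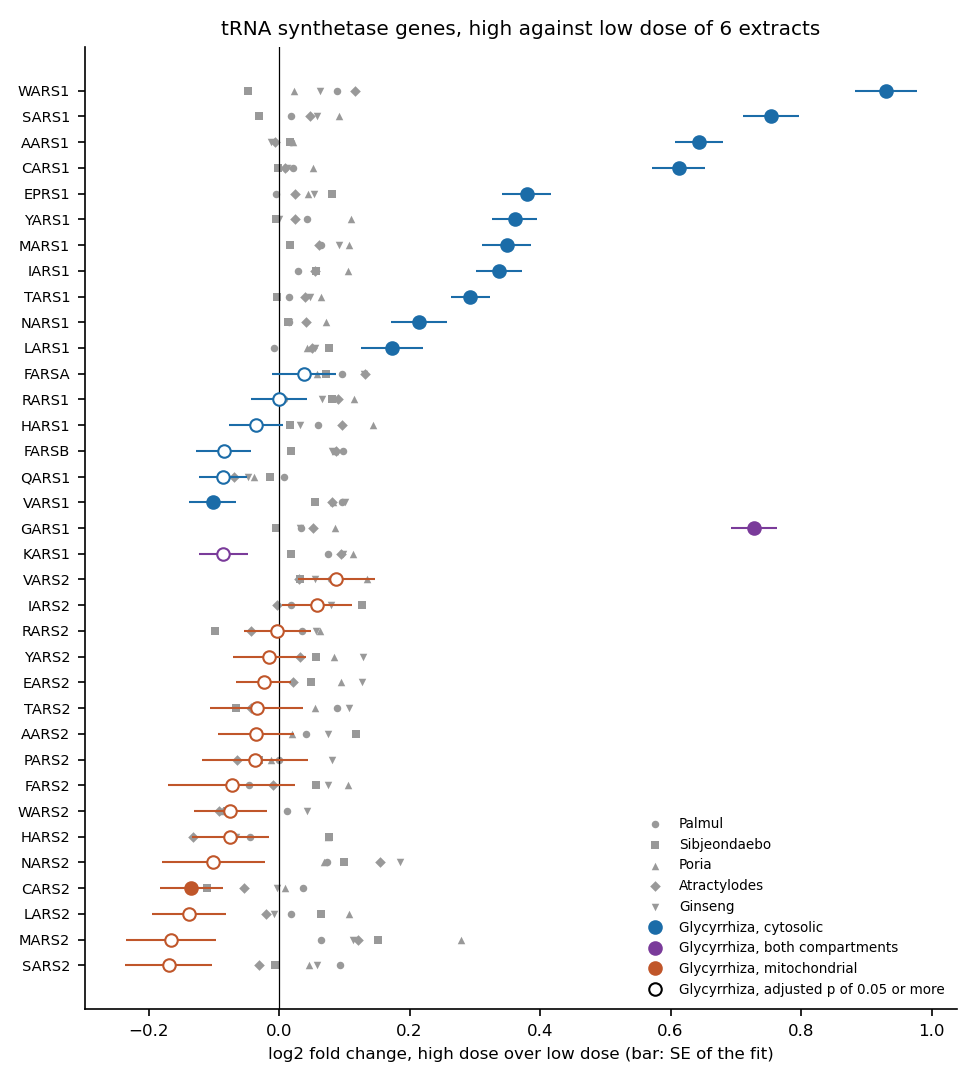
Log2 fold change (x axis) of each of the 35 synthetase genes (rows) at high against low dose; large coloured points with bars of 1 SE are Glycyrrhiza, open where not called, and small grey points are the other 5 replicated extracts. WARS1 at 0.93 and SARS1 at 0.75 head the cytosolic genes, GARS1 stands at 0.73, the mitochondrial genes lie between -0.17 and 0.09, and the highest grey point is MARS2 with Poria at 0.28.

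A second tier rose by less. EPRS1, a fused enzyme for glutamate and proline, had 341.4, 329.4 and 325.0 CPM at high dose and 252.5, 251.5 and 260.6 CPM at low dose (log2 fold change 0.38 ± 0.04, adjusted p = 1.1e-11). The tyrosine gene YARS1 (0.36), the methionine gene MARS1 (0.35), the isoleucine gene IARS1 (0.34) and the threonine gene TARS1 (0.29) rose to a like extent on the log2 scale, with adjusted p of 6.7e-12, 1.3e-10, 4.5e-11 and 4.7e-11. The asparagine gene NARS1 (log2 fold change 0.21 ± 0.04, adjusted p = 1.2e-04) and the leucine gene LARS1 (0.17 ± 0.05, adjusted p = 0.0046) rose least. None of the 12 genes that rose had a high dose library inside the range of its low dose libraries. They had been picked by the test on these same libraries, so this adds no support to the calls. How many of all tested genes were free of overlap was not counted.

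The remaining cytosolic genes did not share the rise. The valine gene VARS1 had 225.6, 245.7 and 233.9 CPM at high dose and 256.5, 252.3 and 246.8 CPM at low dose (log2 fold change -0.10 ± 0.04, adjusted p = 0.03). This call was lost in 6 of 13 other fits: with no filter, with these groups alone, and without high dose replicate 1 or 3 or low dose replicate 1 or 2. The high dose libraries all lay below the low dose libraries, by little. FARSA, which encodes a subunit of the phenylalanine enzyme (log2 fold change 0.04), the arginine gene RARS1 (-0.00), the histidine gene HARS1 (-0.04), the other phenylalanine subunit gene FARSB (-0.08) and the glutamine gene QARS1 (-0.09) were not called. Nor was KARS1, the lysine gene for both compartments, at 215.1, 221.5 and 233.3 CPM at high dose and 248.9, 238.6 and 222.5 CPM at low dose (-0.09). Its libraries overlapped.

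Splits of the 19 cytosolic and shared genes by known biochemistry did not separate those that rose. In the multisynthetase complex 4 of 7 genes rose (EPRS1, IARS1, LARS1 and MARS1; median log2 fold change 0.17), and outside it 8 of 12 rose and 1 fell (median 0.33). By fold of the catalytic domain synthetases also fall into class I and class II. Among cytosolic members 7 of 10 class I genes and 4 of 7 class II genes rose, with the fused EPRS1 counted in class I. GARS1, which rose, and KARS1, which did not, are left out of this split by fold. For all these counts, 14% of all tested genes were higher and 10.9% lower.

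Their mitochondrial counterparts did not share the rise, and most leaned slightly downward. Of 16 mitochondrial genes 0 rose and 1 fell by edgeR, where 14% of all tested genes were higher and 10.9% lower. Log2 fold changes ran from -0.17 (SARS2 and MARS2) to 0.09 (VARS2). They were above 0 in 2 of the 16 genes, and 4 genes had an unadjusted p below 0.05. CARS2 fell to 46.84, 43.96 and 43.83 CPM at high dose, against 49.38, 50.77 and 47.69 CPM at low dose (log2 fold change -0.13 ± 0.05, adjusted p = 0.034). It lost this call in 6 of 13 other fits: with no filter, with these groups alone, and without replicate 2 or 3 of the high dose or replicate 1 or 2 of the low dose. Its direction was thus opposite to that of CARS1.

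The partners of the other top genes did not rise either. WARS2 had 22.37, 20.88 and 21.44 CPM at high dose and 22.05, 23.21 and 22.92 CPM at low dose (log2 fold change -0.07). AARS2 had 23.9, 27.46 and 24.91 CPM at high dose and 25.32, 27.05 and 25.6 CPM at low dose (-0.04). SARS2 had 41.24, 39.44 and 45.43 CPM at high dose and 46.91, 48.04 and 46.94 CPM at low dose (-0.17). Neither WARS2 nor AARS2 separated the doses, the SARS2 high dose libraries all lay below, and none of the 3 was called. SARS2 shares 46.2% of its exon bases with the readthrough gene AC011455.2 on the same strand, so its counts are uncertain.

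Summed over the class, the cytosolic genes held 2752 ± 17.9 CPM in vehicle and 2831 ± 26.7, 2855 ± 18.4 and 3485 ± 33.3 CPM at 14, 70 and 350 µg/mL Glycyrrhiza (SD, n = 3 each). The mitochondrial genes held 537.1 ± 20.2 CPM in vehicle and 584.7 ± 11, 582.1 ± 6.94 and 568.1 ± 6.96 CPM at the same doses. The ratio of the cytosolic to the mitochondrial sum was 6.109 to 6.185 in the high dose Glycyrrhiza libraries. In the other 57 libraries it ran from 4.633 to 5.259, with a median of 4.858, and so did not reach the high dose Glycyrrhiza values.

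**Figure D2:**
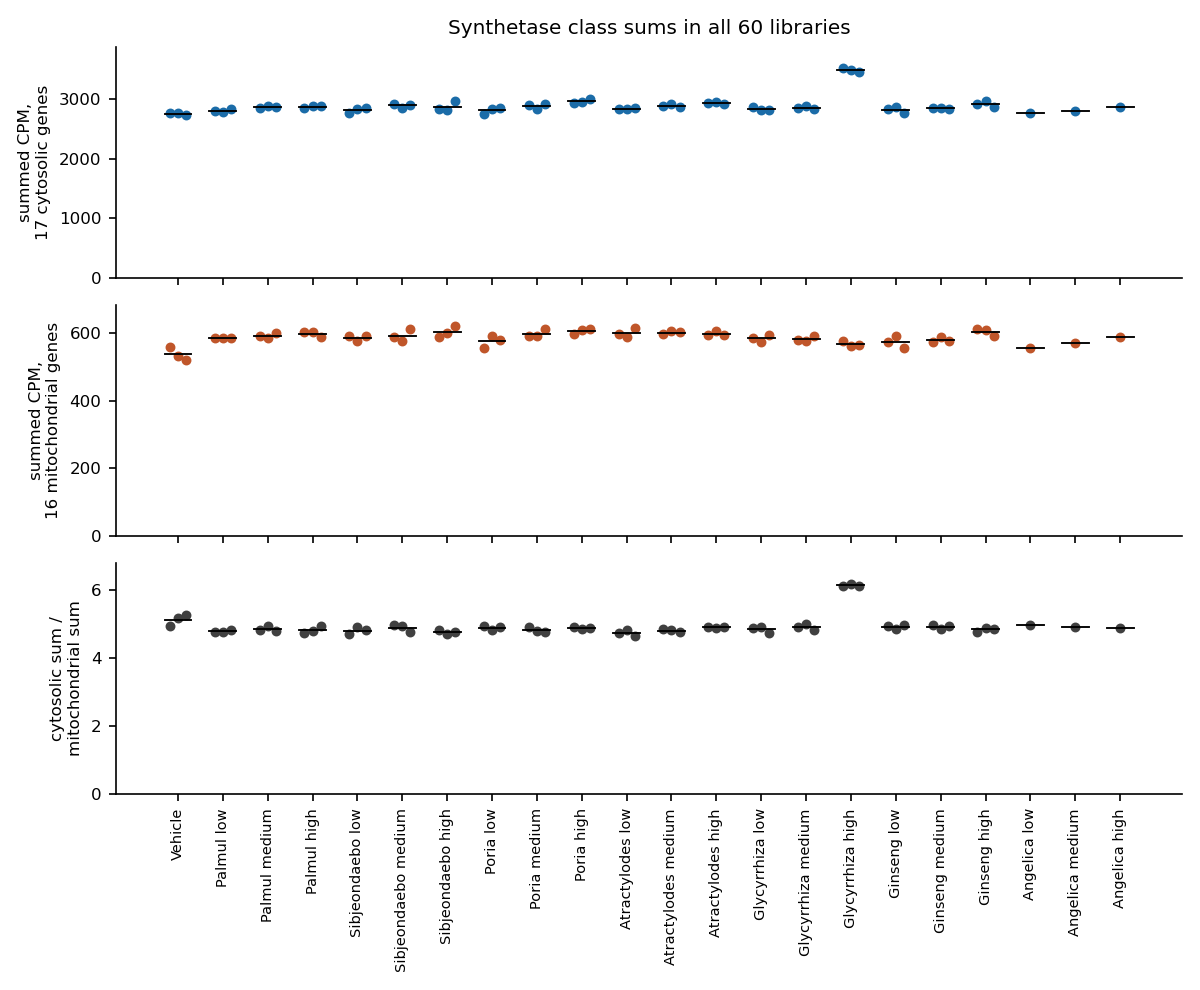
Summed CPM of the 17 cytosolic genes (top), of the 16 mitochondrial genes (middle) and their ratio (bottom) in each of 60 libraries (points) with the group mean (line), by extract and dose. The high dose Glycyrrhiza libraries stand apart in the cytosolic sum, at a mean of 3485 CPM, and not in the mitochondrial sum, at a mean of 568.1 CPM.

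At the middle dose of Glycyrrhiza the genes that rose most at the top dose stood near their low dose level. WARS1 had 114.3, 108.5 and 107.2 CPM at 70 µg/mL Glycyrrhiza, and SARS1 had 118.5, 115.9 and 113.2 CPM. GARS1 had 215.5, 205.1 and 214.8 CPM there. In vehicle WARS1 read 108.7, 113.6 and 114.3 CPM, which overlapped the middle dose libraries.

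Between medium and low dose of Glycyrrhiza 0 of 35 genes were called by edgeR, as were 0% of all tested genes, with 1 member, WARS1 (log2 fold change 0.10), at an unadjusted p below 0.05 and 0 called by DESeq2. All WARS1 libraries at medium dose lay above those at low dose. The medium dose comparison also gave 0 called members in each of the other 5 extracts by edgeR and by DESeq2. At an unadjusted p below 0.05 there were 3 members for Palmul-tang, 4 for Sibjeondaebo-tang, 4 for Poria, 4 for Atractylodes and 0 for Ginseng. The share of all tested genes called was 0.00608% for Palmul-tang, 0.00608% for Sibjeondaebo-tang, 0% for Poria, 0.00608% for Atractylodes and 0% for Ginseng, so hardly any gene was called between these doses.

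**Figure D3:**
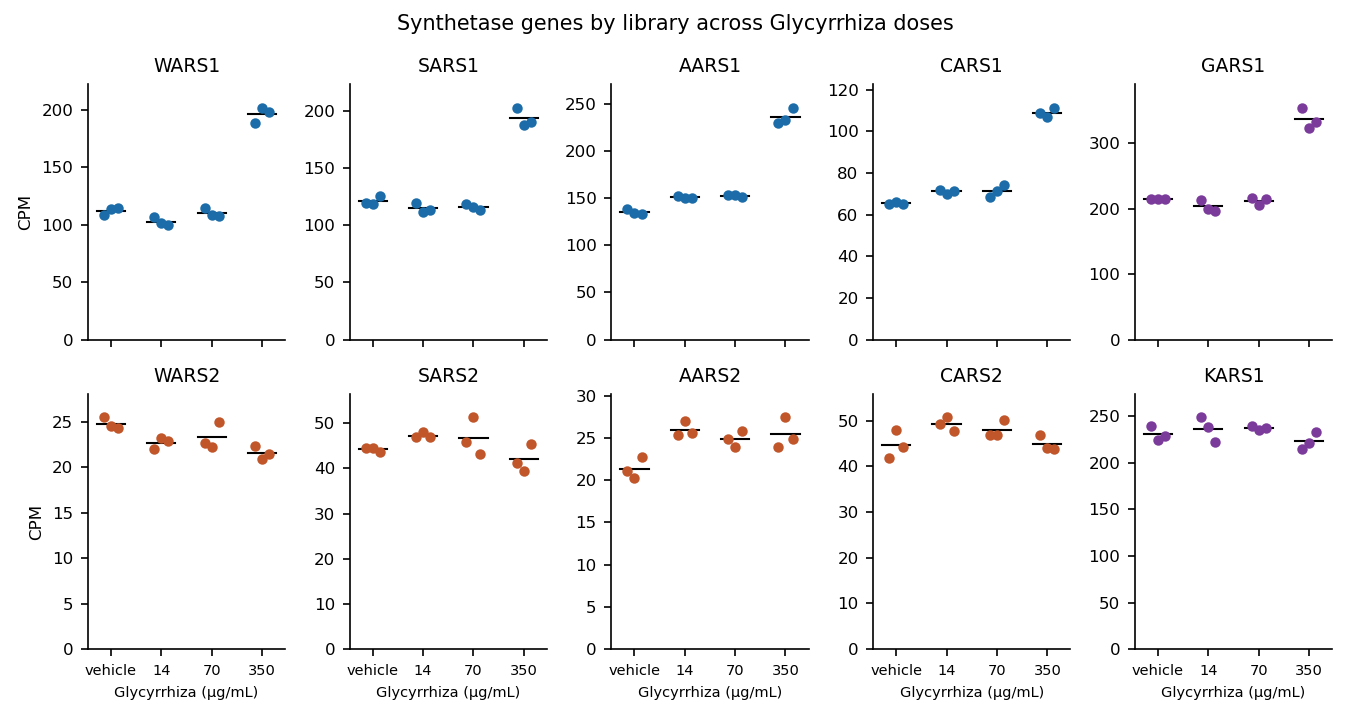
CPM in each library (points) and the group mean (line) in vehicle and at 14, 70 and 350 µg/mL Glycyrrhiza, for 5 genes called at high dose in the upper row and their mitochondrial partners, or KARS1 below GARS1, in the lower row. Points for WARS1 lie between 99.81 and 106.8 CPM at 14 µg/mL, between 107.2 and 114.3 CPM at 70 µg/mL and between 188.5 and 201.8 CPM at 350 µg/mL.

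In the other 5 replicated extracts few members or none passed the test between high and low dose. By edgeR, 0 of 35 members were called at high against low dose of Palmul-tang, Sibjeondaebo-tang, Atractylodes and Ginseng, where 0.152%, 0.371%, 3.95% and 2.52% of all tested genes were called. DESeq2 also called 0 members in these 4, and 2, 5, 9 and 7 members had an unadjusted p below 0.05. Without the high dose Ginseng replicate 3, which lay apart on the principal component, 1 member was called for Ginseng. Member medians were small, at 0.03 for Palmul-tang, 0.02 for Sibjeondaebo-tang, 0.03 for Atractylodes and 0.06 for Ginseng on the log2 scale.

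Poria gave 1 call, in the mitochondrial class. MARS2, the mitochondrial methionine gene, had 39.4, 40.84 and 38.27 CPM at high dose and 29.03, 35.26 and 32.98 CPM at low dose, a log2 fold change of 0.28 ± 0.07 (edgeR, adjusted p = 0.014), where 1.02% of all tested genes were higher. The libraries did not overlap, with low dose replicate 1 the lowest. Without that replicate, which lay apart from the rest, the log2 fold change was 0.21 (adjusted p = 0.17) and 0 members were called, as was also the case without high dose replicate 1 or replicate 2. Without low dose replicate 2 there were 2. MARS2 lies at chr2:197705369-197708387 (plus strand).

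The change with Glycyrrhiza differed from that with the other extracts when the difference itself was tested. Against the mean high to low dose change of the other 5 extracts, 11 members were higher with Glycyrrhiza, where 12.3% of all tested genes were higher. These were the 12 that rose above without LARS1. WARS1 exceeded the others' change by 0.88, SARS1 by 0.72, GARS1 by 0.69 and AARS1 by 0.64 on the log2 scale. A further 6 members changed in the lower direction, where 9.2% of all tested genes did: FARSB (-0.16), VARS1 (-0.19), KARS1 (-0.17), LARS2 (-0.17), MARS2 (-0.31) and SARS2 (-0.20).

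The same test for Sibjeondaebo-tang gave 3 members in the lower direction, SARS1, WARS1 and GARS1, where 0.809% of all tested genes were lower, and 5 without its high dose replicate 3. Glycyrrhiza is among the 5 extracts it was set against, and these are 3 of the genes that rose most there. For Palmul-tang, Poria, Atractylodes and Ginseng edgeR called 0 members, where 0.669%, 0.14%, 0.268% and 0.109% of all tested genes were called, and DESeq2 called 2, 1, 0 and 0. At an unadjusted p below 0.05 there were 8, 6, 6 and 7 members. Without the low dose Atractylodes replicate 3 or the low dose Glycyrrhiza replicate 1, 1 was called for Palmul-tang.

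High doses of extracts of the same set were also compared directly. Glycyrrhiza against Ginseng gave 11 higher members, where 13.3% of all tested genes were higher, and 8 lower members, where 9.98% were lower. WARS1 was 0.85 ± 0.05 higher on the log2 scale (edgeR, adjusted p = 1.7e-19), followed by SARS1 at 0.70, GARS1 at 0.67, and AARS1 and CARS1 at 0.62 each. The lower members were FARSB, VARS1, KARS1, CARS2, EARS2, LARS2, MARS2 and NARS2, the last by -0.24. The doses differed, at 350 µg/mL for Glycyrrhiza and 500 µg/mL for Ginseng.

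For the extracts given at equal doses no member was called. Palmul-tang against Sibjeondaebo-tang at 500 µg/mL gave 0 of 35 by edgeR, 0 at an unadjusted p below 0.05 and 0 by DESeq2, and 0% of all tested genes were called. Poria against Atractylodes at 500 µg/mL gave 0 of 35 by edgeR, 1 at an unadjusted p below 0.05 and 0 by DESeq2, where 0.979% of all tested genes were called. Synthetase RNA thus did not pass the test between either pair.

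Averaged over the 6 replicated extracts, high against low dose gave many small calls in the cytosolic class. The test called 20 members higher, where 11.4% of all tested genes were, and 1 lower, QARS1 at -0.04, where 10.1% were. The higher members were the other 16 cytosolic genes, GARS1 (0.15), KARS1 (0.05), MARS2 (0.09) and VARS2 (0.07).

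Over the 5 extracts without Glycyrrhiza, 11 members were higher and 0 lower, where 8.53% of all tested genes were higher and 7.26% lower. They included genes that had not risen with Glycyrrhiza: FARSA (log2 difference 0.10, adjusted p = 0.0015), VARS1 (0.09, adjusted p = 8.3e-05), KARS1 (0.08, adjusted p = 2.8e-04), FARSB (0.08), HARS1 (0.07) and RARS1 (0.07). IARS1 (0.06) and MARS1 (0.07) were the only ones that had. The mitochondrial genes MARS2 (0.15, adjusted p = 8.5e-04), NARS2 (0.12) and EARS2 (0.06) completed the list, while AARS1 (0.01) and CARS1 (0.02) were not called. All these differences are below 0.2 on the log2 scale.

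Set against vehicle, each of the 6 high doses had members of the mitochondrial class that rose. The 6 comparisons share the same 3 vehicle libraries, so they are given side by side. VARS2, the mitochondrial valine gene, was called in all 6. It had 25.9, 24.54 and 24.57 CPM with Palmul-tang, 23.0, 26.28 and 25.61 CPM with Sibjeondaebo-tang, 24.7, 24.6 and 24.24 CPM with Poria, 23.79, 26.55 and 23.96 CPM with Atractylodes, 27.4, 23.86 and 24.95 CPM with Glycyrrhiza and 25.6, 25.13 and 22.61 CPM with Ginseng, against 18.91, 18.87 and 17.79 CPM in vehicle. Every high dose library lay above every vehicle library. Log2 fold changes were 0.43 for Palmul-tang (adjusted p = 1.3e-06), 0.43 for Sibjeondaebo-tang, 0.40 for Poria, 0.41 for Atractylodes, 0.45 for Glycyrrhiza (adjusted p = 6.4e-08) and 0.40 for Ginseng. VARS2 lies at chr6:30908242-30926459 (plus strand) and shares 22.0% of its exon bases with GTF2H4 on the same strand, so reads of both may mix.

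Other members called in all 6 were AARS1, MARS1, AARS2 and IARS2. The share of all tested genes called in all 6 was not counted. Because the vehicle libraries are shared, such repeated calls are not independent and are not shown to be particular to these members. MARS1 log2 fold changes were 0.26 for Palmul-tang, 0.23 for Sibjeondaebo-tang, 0.33 for Poria, 0.32 for Atractylodes, 0.56 for Glycyrrhiza and 0.29 for Ginseng. MARS1 overlaps DDIT3 on the opposite strand over 5.05% of its exon bases. The count setting for strand is not given, so reads of this overlap cannot be assigned for certain.

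MARS2 and NARS2 were called with every extract except Glycyrrhiza. MARS2 had 42.83, 38.21 and 37.35 CPM with Palmul-tang at high dose and 32.25, 32.38 and 26.61 CPM in vehicle (log2 fold change 0.37, adjusted p = 9.3e-05). It had 33.37, 31.67 and 31.03 CPM with Glycyrrhiza (0.07, not called), which overlapped vehicle. NARS2 log2 fold changes were 0.34 for Palmul-tang and 0.05 for Glycyrrhiza. Vehicle replicate 3 is the MARS2 library at 26.61 CPM. Without it, neither MARS2 nor NARS2 was called over the mean of the low doses against vehicle (edgeR, adjusted p of 0.19 and 0.11).

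By class, Palmul-tang gave 4 cytosolic and 9 mitochondrial members higher, where 11.7% of all tested genes were higher, and 0 lower, where 9.95% were lower. Sibjeondaebo-tang gave 6 cytosolic and 8 mitochondrial members higher (14.2% of all tested genes) and 5 lower (13.1%): WARS1, SARS1, GARS1, WARS2 and RARS2. Poria gave 7 cytosolic and 9 mitochondrial members and KARS1 higher (13.4%) and WARS2 lower (11.6%). Atractylodes gave 6 cytosolic and 9 mitochondrial members and KARS1 higher (11.9%) and 0 lower (10.6%). Ginseng gave 4 cytosolic and 7 mitochondrial members and KARS1 higher (10.3%) and 0 lower (8.57%).

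Glycyrrhiza gave 12 cytosolic members, GARS1 and 4 mitochondrial members higher (18.8% of all tested genes) and FARSB and WARS2 lower (15.5%). The 5 genes with the largest changes against the low dose were among those that rose: WARS1 by 0.80 ± 0.05, AARS1 by 0.80 ± 0.04, CARS1 by 0.73 ± 0.04, SARS1 by 0.67 ± 0.04 and GARS1 by 0.65 ± 0.04 on the log2 scale (edgeR, adjusted p of 7.4e-19, 9.0e-23, 1.2e-19, 1.4e-17 and 4.4e-20). MARS1 rose by 0.56, against 0.35 over the low dose, and VARS1, called lower against the low dose, had a log2 fold change of 0.05 against vehicle and was not called. AARS1 in vehicle read 138.6, 134.3 and 133.2 CPM. The AARS1 high dose libraries, given above, stood clear of that range.

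**Figure D4:**
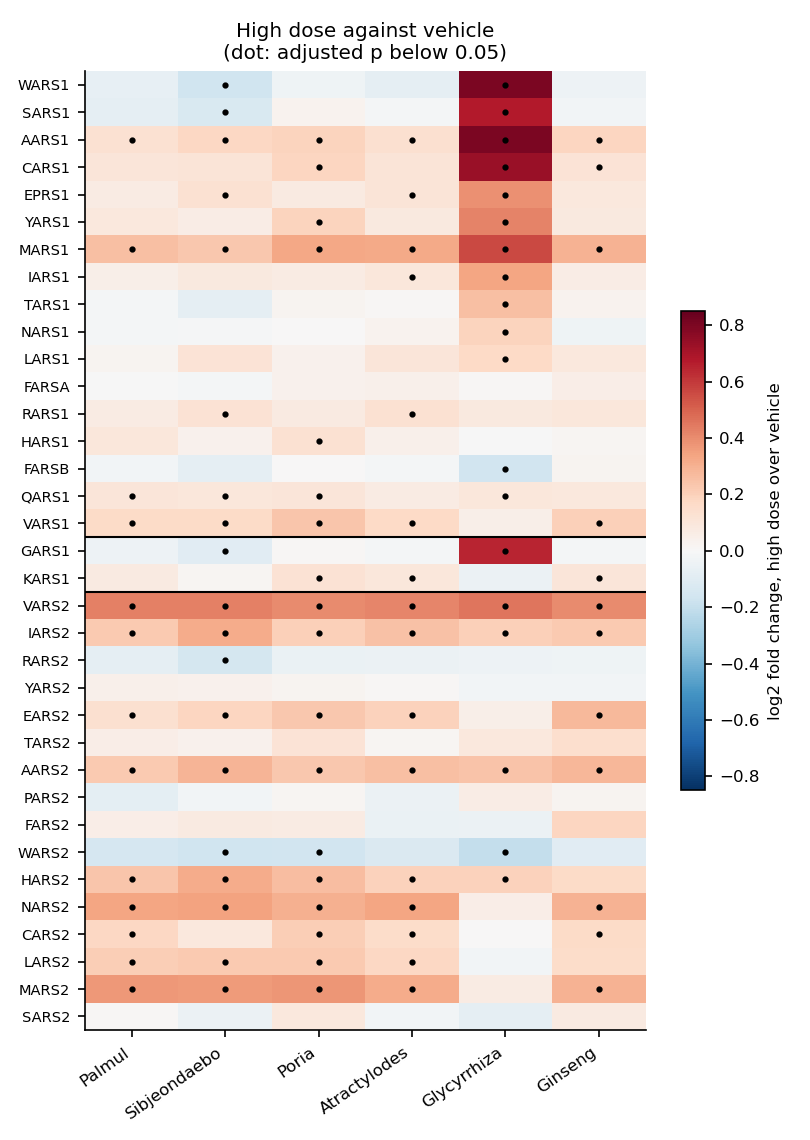
Log2 fold change (colour) of each synthetase gene (rows) at the high dose of each of 6 extracts (columns) against the same 3 vehicle libraries, with a dot where called. VARS2 lies between 0.40 and 0.45 in all 6, and WARS1 stands at 0.80 with Glycyrrhiza.

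Members also differed from vehicle at the lowest doses. The mean of the 6 low doses against vehicle called 14 members higher, where 14.8% of all tested genes were higher: AARS1, CARS1, MARS1, QARS1, VARS1 and the mitochondrial AARS2, CARS2, EARS2, HARS2, IARS2, LARS2, MARS2, NARS2 and VARS2. It called FARSB, WARS1 and GARS1 lower, where 13.9% of all tested genes were lower. None of these 3 lower calls held without vehicle replicate 3 (adjusted p of 0.24, 0.064 and 0.12). Of the 14 higher calls, those of CARS1, IARS2, MARS2 and NARS2 were also lost in that fit (adjusted p of 0.054, 0.055, 0.19 and 0.11). VARS2 differed by 0.35 ± 0.05 (adjusted p = 3.8e-07), HARS2 by 0.25 (adjusted p = 5.2e-05) and MARS1 by 0.22 (adjusted p = 1.9e-07) on the log2 scale. HARS2 overlaps HARS1 on the opposite strand over 11.7% of its exon bases.

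The mitochondrial share of RNA also differed between vehicle and the low doses. Of 13 mitochondrially encoded protein genes, 11 were lower in the low doses than in vehicle (median log2 difference -0.57), where 13.9% of all tested genes were lower. With the mitochondrial share as a covariate, 11 members were called in place of 17 over the low doses. Of the 9 mitochondrial members 4 were still called there, AARS2, CARS2, HARS2 and VARS2, while EARS2, IARS2, LARS2, MARS2 and NARS2 were not (adjusted p of 0.12, 0.39, 0.37, 0.34 and 0.37). The log2 difference of IARS2 was 0.07 with the covariate and 0.18 without it, and that of MARS2 was 0.10 with it and 0.20 without it. FARSB had -0.03 with the covariate (adjusted p = 0.69), and TARS1 was called lower. At high dose against vehicle the covariate gave 3 in place of 13 for Palmul-tang, 12 in place of 19 for Sibjeondaebo-tang, 10 in place of 18 for Poria, 6 in place of 16 for Atractylodes and 7 in place of 12 for Ginseng. Without vehicle replicate 3, 10 members were called over the low doses and 9 for Atractylodes, and without high dose Atractylodes replicate 2 there were 10 for Atractylodes. Vehicle had the highest mean share of all groups, at 10.2%, so the covariate and the comparison with vehicle cannot be fully told apart. A call lost with the covariate therefore does not show what the difference came from. How many of all tested genes were called with the covariate was not counted. The drop in calls is thus not shown to be particular to these members. The part of the mitochondrial share in the differences was not tested.

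Genes that act beside the synthetases were then followed at high against low dose of Glycyrrhiza. Of 31 tested ATF4 targets outside the family, 29 rose and 1 fell, with a median log2 fold change of 0.95. This list, too, was chosen with results of these data known, and 14% of all tested genes were higher and 10.9% lower. CHAC1, which degrades glutathione, had 18.54, 21.34 and 21.09 CPM at high dose and 2.927, 3.331 and 3.161 CPM at low dose (log2 fold change 2.69 ± 0.12, adjusted p = 6.4e-23). ASNS, asparagine synthetase, had 215.6, 204.7 and 202.8 CPM at high dose and 51.82, 52.84 and 54.72 CPM at low dose (1.97 ± 0.05, adjusted p = 1.2e-34). Both far exceeded any synthetase gene in fold change.

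TRIB3, a pseudokinase induced by ATF4, rose by 1.46 ± 0.06 (adjusted p = 1.1e-25), DDIT3, which encodes the stress factor CHOP, by 1.75 ± 0.11 (adjusted p = 3.2e-18) and DDIT4, an inhibitor of mTORC1, by 1.89 (adjusted p = 2.6e-25). The exception was ATF5, itself a stress factor, which fell to 52.74, 50.34 and 53.07 CPM at high dose, against 78.35, 74.44 and 69.19 CPM at low dose (-0.51 ± 0.09, adjusted p = 1.1e-05). ALDH1L2 was not called.

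ATF4 RNA had 400.8, 419.6 and 448.5 CPM at high dose and 269.0, 258.4 and 253.4 CPM at low dose (log2 fold change 0.70 ± 0.05, adjusted p = 1.6e-15). It was placed in a list of eIF2 kinases and their regulators, of which 4 of 10 rose and 3 fell. Among all tested genes 14% were higher and 10.9% lower. EIF2AK3, the kinase of the endoplasmic reticulum, rose by 0.70 (adjusted p = 1.3e-14), and EIF2AK4, the kinase that senses uncharged transfer RNA, fell by 0.16. GCN1, its activator, rose by 0.15.

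Genes for the steps around charging were counted as well. Of 13 genes for tRNA export, capture and elongation in the cytosol, 6 rose and 2 fell (median 0.05). The shares over all tested genes were 14% higher and 10.9% lower. XPOT, the exporter of transfer RNA, rose by 0.53 ± 0.04 (adjusted p = 5.3e-17), and EEF1A2, an elongation factor that carries charged tRNA to the ribosome, rose by 0.75 (adjusted p = 2.3e-10). XPOT is also on the ATF4 list. Of 11 scaffold and editing partners of the synthetases, 0 were called by edgeR, with log2 fold changes from -0.22 to 0.09.

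On the mitochondrial side of the pathway the calls were read against the same shares of all tested genes, 14% higher and 10.9% lower. Of 18 genes for charging and maturation of mitochondrial tRNA, 1 rose (HSD17B10, a subunit of mitochondrial RNase P, 0.18) and 2 fell (GATC, -0.16, and TRMT10C, -0.18). Of 14 mitochondrial translation factors 1 fell, the release factor gene MTRF1 (-0.32, adjusted p = 0.0019). The 13 mitochondrially encoded protein genes had a median of 0.10.

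**Figure D5:**
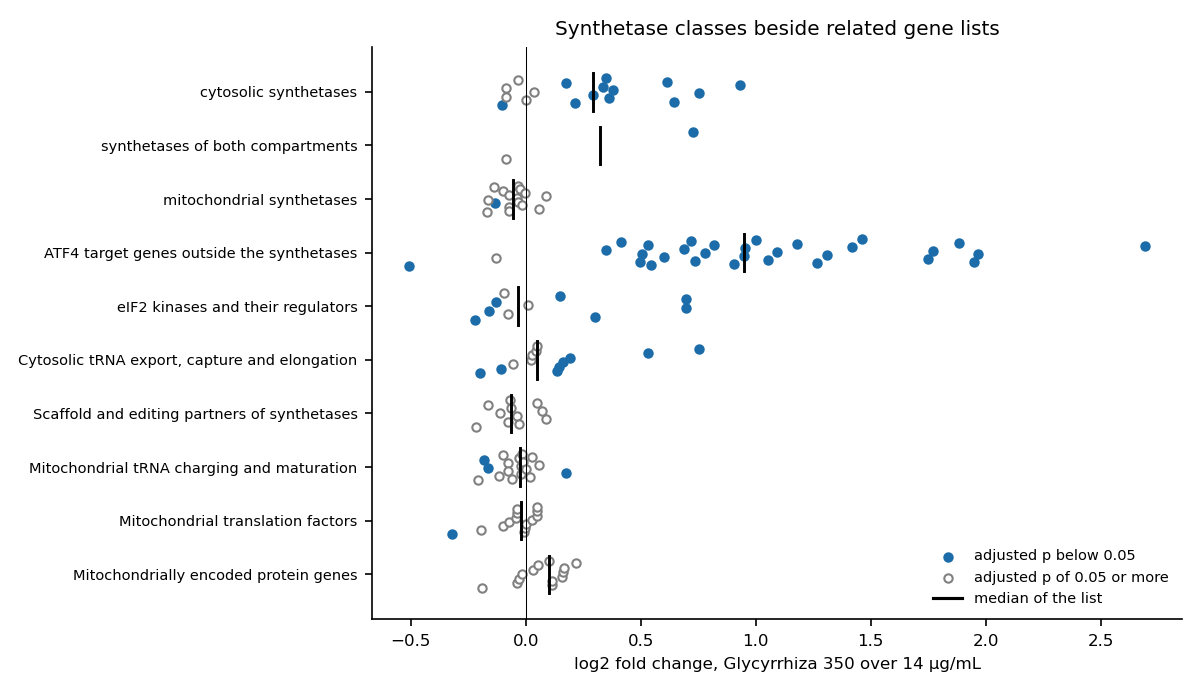
Log2 fold change at high against low dose of Glycyrrhiza for the genes (points, filled where called) of each synthetase class and each list, with a line at the median. The ATF4 targets centre on 0.95, while the mitochondrial lists centre near 0.

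Markers of other cells were read in the same libraries. Of 4 immune markers CD68 was the one with enough counts, and it was higher at high than at low dose of Glycyrrhiza (log2 fold change 0.60 ± 0.15, adjusted p = 0.0022). The summed immune markers were 8.26 to 9.26 CPM at high dose and 5.89 to 6.47 CPM at low dose, with PTPRC and CD3E at or near 0. Fibroblast markers summed to 1.68 to 1.89 CPM at high dose and 1.16 to 1.57 CPM at low dose. Among epithelial markers KRT20 (0.78) and CDH1 (0.14) rose and VIL1 fell (-0.63).

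The ATF4 list was counted in the other extracts as well. Between high and low dose, of 31 genes 0 were called for Palmul-tang by edgeR, 1 rose for Sibjeondaebo-tang, 6 rose for Poria, 7 rose for Atractylodes, and 2 rose and 1 fell for Ginseng. The share of all tested genes called in either direction was 0.152% for Palmul-tang, 0.371% for Sibjeondaebo-tang, 1.86% for Poria, 3.95% for Atractylodes and 2.52% for Ginseng. SLC7A11, the cystine transporter gene, rose in Sibjeondaebo-tang (0.43), Poria (0.64), Atractylodes (0.71) and Ginseng (0.49). ASNS rose with Poria (0.24) and Atractylodes (0.26). TRIB3 rose with Poria (0.25, adjusted p = 0.0098) and was not called with the other 4.

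The promoter core was then read beside the response. Of the 10 windowed genes that rose with Glycyrrhiza, 6 held TGATGCAA (AARS1, CARS1, IARS1, MARS1, NARS1 and TARS1), and of the other 20 windowed members 0 did. With a free sixth base the counts were 7 of 10, GARS1 joining, and 1 of 20, YARS2. WARS1 and SARS1, the genes with the highest fold changes, held neither form in these windows.

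Angelica had 1 library per dose and no test. No member passed a log2 ratio of 0.5 in either direction between high and low dose, where 1.76% of all tested genes were above and 5.01% below, nor between high dose and vehicle, where 1.71% were above and 4.54% below. EARS2, the mitochondrial glutamate gene, had 55.18, 59.2 and 66.46 CPM at 12.8, 64 and 320 µg/mL. AARS1 had 151.9, 144 and 131.3 CPM. Across the doses the EARS2 values ran upward and the AARS1 values downward. The cytosolic sum was 2869 CPM and the mitochondrial sum 586.8 CPM at high dose, a ratio of 4.889, inside the range of the other libraries.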

How the data were processed

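Per the labels' protocols, strand-specific libraries of HT29 RNA were read as 100 bp pairs. The authors deposited expected counts by gene from RSEM 1.3.3. Their tools also included FastQC 0.11.9, Trim Galore 0.6.5 and STAR 2.7.3a, with build hg38, per the submitters' processing notes. Neither the annotation release nor the strand setting of the counting is given in the sources used here. Per library 7.7% to 9.78% of values were not whole, and they were rounded. The table's 213 other sample columns were not used. Gene symbols were matched by identifier, and coordinates and exon lengths from GENCODE release 29 on GRCh38.

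The 57 libraries of 19 groups of 3 shared a fit in edgeR 4.0.16 (R 4.3.3): TMM factors of 0.956 to 1.031, the filterByExpr filter (16445 genes), the quasi-likelihood F test (38 residual degrees of freedom), a common biological coefficient of variation of 0.05, and Benjamini-Hochberg adjustment over all tested genes within each of 29 comparisons. Rose, fell and called mean an adjusted p below 0.05. Fold changes carry the SE of the fit, and CPM use TMM factors over all 60 libraries, except those of marker genes, which use unscaled library totals. For Angelica, log2 ratios were taken with 0.5 CPM added and no test. Alternatives were RLE factors, no filter, DESeq2 1.42.0, the groups compared alone, a replicate block, the mitochondrial share as a covariate, each library left out and, added after the data were seen, the other extracts without Glycyrrhiza and removal of the 3 libraries lying apart. The correlation between replicates was 0.9865 to 0.9933, and each pair differed by more than sampling noise, so all were kept as separate libraries. The script was tested on simulated data.

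The members and gene lists were chosen with earlier results of these data known. Genes with values per library are, for a comparison, up to 6 called members with the largest absolute log2 fold change and no overlap, with the cytosolic or mitochondrial partner, up to 3 called genes per list, and TRIB3, ASNS, ATF4 and DDIT3. MARS2, NARS2, KARS1, VARS1, CARS2, EPRS1, the Angelica genes and further list genes were named after their values were seen. The result of 1 further gene list is not reported here.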

Additional observations from a re-analysis of the deposited data

Results flagged for a closer look

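The change between high and low dose of an extract, less the mean of that change over the other 5 replicated extracts, passed the test for 20 gene and extract pairs (edgeR quasi-likelihood F test on the difference, Benjamini-Hochberg adjustment over all tested genes). Of all tested genes, 12.3% were higher and 9.2% lower in the difference for Glycyrrhiza, and 0.809% lower in that for Sibjeondaebo-tang. For Glycyrrhiza the difference on the log2 scale was 0.883 for WARS1 (adjusted p = 1.4e-18), 0.717 for SARS1, 0.688 for GARS1 (adjusted p = 3.7e-19), 0.637 for AARS1 and 0.594 for CARS1. EPRS1 followed at 0.34, YARS1 at 0.326, MARS1 at 0.28, IARS1 at 0.277, TARS1 at 0.261 and NARS1 at 0.182. All of these genes also rose in the comparison of high with low dose of Glycyrrhiza itself.

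Differences below 0 with Glycyrrhiza were -0.312 for MARS2 (adjusted p = 0.0014), -0.202 for SARS2 (adjusted p = 0.043), -0.185 for VARS1, -0.171 for LARS2 (adjusted p = 0.039), -0.166 for KARS1 and -0.159 for FARSB. Of these 6, VARS1 was the one also called within Glycyrrhiza. The other 5 were not called there.

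For Sibjeondaebo-tang the differences were -0.292 for WARS1 (adjusted p = 9.1e-04), -0.225 for SARS1 (adjusted p = 0.0066) and -0.192 for GARS1 (adjusted p = 0.0041). The mean they were set against includes Glycyrrhiza, and none of the 3 genes was called between high and low dose of Sibjeondaebo-tang by edgeR.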

How the results depend on the processing

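The 14 members called between high and low dose of Glycyrrhiza were 14 or 15 under the other scaling, filter, test and model choices, and 12 to 16 with a library left out. The 12 higher members kept their call in each of 13 other fits, while VARS1 (-0.135 to -0.0741) and CARS2 (-0.169 to -0.114) lost theirs in 6 each. For members called in the main fit of a comparison, 3575 of 3905 recomputed values kept the call and direction, 330 lost the call and 0 turned round. Members not called in the main fit, including those that gained a call in another fit, are outside this count. The cause of the changes below was not tested. Apart from the fit without Glycyrrhiza, the share of all tested genes called in these other fits was not counted.

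Poria high against low dose had 1 call, 3 by DESeq2, 0 with its groups alone, 0 without the 3 libraries lying apart and 0 to 2 with a library left out. The mitochondrial share as a covariate gave 3 for Palmul-tang, 12 for Sibjeondaebo-tang, 10 for Poria, 6 for Atractylodes and 7 for Ginseng against vehicle, 11 for the low doses against vehicle and 1 for the Palmul-tang difference from other extracts. Fits of the groups alone gave 10 for Sibjeondaebo-tang and 10 for Atractylodes against vehicle. DESeq2 gave 2 for the difference of Palmul-tang and 1 for that of Poria from the other extracts, and no filter gave 1 for Poria. Leaving out Glycyrrhiza gave 11 for the mean of high against low dose, in place of 21.

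Replicate numbers showed little pairing of the samples on average: deviations of same-numbered libraries of a set correlated at a mean r of 0.02177 (-0.1103 to 0.1936). Between high and low dose of Ginseng, r was 0.0633, 0.0713 and 0.189 for the 3 replicate numbers. With the number as a replicate block, calls were 15 for Glycyrrhiza and 2 for Poria between high and low dose, and 1 each for the differences of Palmul-tang, Poria and Atractylodes from the other extracts.

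With each library left out, calls ran from 0 to 1 for Ginseng between doses (1 without high dose replicate 3), and against vehicle from 9 to 14 for Palmul-tang, 13 to 19 for Sibjeondaebo-tang, 15 to 17 for Poria, 9 to 15 for Atractylodes (9 without vehicle replicate 3, 10 without high dose replicate 2), 17 to 19 for Glycyrrhiza, 8 to 13 for Ginseng and 10 to 18 for the mean low dose (10 without vehicle replicate 3). They ran from 16 to 19 for Glycyrrhiza against Ginseng, 18 to 23 for the mean of high against low dose, 14 to 18, 3 to 5 and 0 to 1 for the differences of Glycyrrhiza, Sibjeondaebo-tang (5 without its high dose replicate 3) and Palmul-tang (1 without low dose Atractylodes replicate 3 or low dose Glycyrrhiza replicate 1), and 0 to 0 for the other comparisons. For Poria between doses, 0 remained without high dose replicate 1 or 2 or low dose replicate 1, and 2 without low dose replicate 2.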
